A study of Mus musculus with 6 samples.

Results

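The TNF superfamily ligands described here are 10 genes, picked by name from the 23420 rows of the expression table: Cd40lg, Tnf, Lta, Ltb, Fasl, Tnfsf8, Tnfsf10, Tnfsf11, Tnfsf14 and Cd70. All 10 were found in the table. Their transcripts were compared between single-positive induced T (iT) cells of the CD4 lineage (CD4SP) and of the CD8 lineage (CD8SP) from mouse spleen, with 3 RNA sequencing libraries per population and 1000 sorted cells per library. Both populations grew in B-NDG mice, an immunodeficient NOD strain with a Prkdc scid mutation and no Il2rg, after sublethal irradiation and transfer of blood progenitors. The progenitors had been derived in culture from an embryonic stem cell line of C57BL/6 background (iR9-ESC), in which doxycycline switches on a Runx1-p2a-Hoxa9 cassette in the Rosa26 locus. The study states for such transfers that no doxycycline was given afterwards, although it describes feeding doxycycline in another transfer, and the labels of these libraries do not say. Cells were sorted as positive for the donor CD45 allele and for CD4 or CD8, and negative for Ter119 and CD11b. Both populations therefore share the stem cell line, the cassette and the immunodeficient host, and the 6 libraries analysed here include no T cells of an unmanipulated mouse. By the study the recipients were young adult mice.

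TNF superfamily ligands are mostly membrane proteins that assemble as trimers and engage receptors of the TNF receptor superfamily on neighbouring cells. The receptors either recruit TRAF adaptor proteins, which lead to NF-κB and kinase signalling, or carry a death domain that can start apoptosis through FADD and caspase-8. In T cells these ligands deliver help to B cells and dendritic cells, build and maintain lymphoid tissue, kill target cells and limit the T cell response itself. Many are induced by T cell receptor signalling through NFAT, AP-1 and NF-κB.

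The ligand genes lie at 7 places in the genome, and 3 of them form a cluster. Their positions follow GENCODE M21 (GRCm38, also called mm10). Ltb (chr17:35194439-35196320, plus strand), Tnf (chr17:35199381-35202007, minus strand) and Lta (chr17:35203165-35205351, minus strand) lie within 10913 bases, with 3060 bases between Ltb and Tnf, 1157 between Tnf and Lta, and no other protein-coding gene in either gap. A pair of ligand genes lies elsewhere on the same chromosome, Cd70 (chr17:57145997-57149777, minus strand) and Tnfsf14 (chr17:57189492-57194177, minus strand), separated by 39714 bases without a protein-coding gene between them. The others are Fasl (chr1:161780689-161788495, minus strand), Tnfsf10 (chr3:27317028-27342427, plus strand), Tnfsf8 (chr4:63831308-63861347, minus strand), Tnfsf11 (chr14:78277445-78308043, minus strand) and Cd40lg (chrX:57212143-57224042, plus strand). All 10 are annotated as protein coding, with 3 to 6 exons in the coding transcript that has most. No other annotated gene had a stretch of 200 bases with 95% identity to the longest transcript of any of the 10. The only overlapping annotated genes are the microRNA genes Mir6973a within Ltb and Mir6974 within Lta, each on the same strand as its host.

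Bases upstream of the start site were available from RefSeq (GRCm38.p6) for 8 of the 10 genes, and not for Cd40lg and Cd70. The upstream sequences of the clustered genes Lta, Tnf and Ltb are shown because these neighbours differed in how far they were separated between the populations, and that of Tnfsf11 because it had the largest difference among the genes with a RefSeq window. Each reads 5′ to 3′ on the strand of the gene and ends at the base before its start site. Capitals mark matches, on either strand, to the NFAT core GGAAA, the TATA box TATAAA and the NF-κB consensus. The windows are chr17:35205352-35205601 (minus strand) for Lta, chr17:35202008-35202257 (minus strand) for Tnf, chr17:35194257-35194438 (plus strand) for Ltb and chr14:78308044-78308293 (minus strand) for Tnfsf11. The sequence of Ltb stops after 182 bases, where the GENCODE gene starts, 68 bases ahead of the RefSeq start.
Lta: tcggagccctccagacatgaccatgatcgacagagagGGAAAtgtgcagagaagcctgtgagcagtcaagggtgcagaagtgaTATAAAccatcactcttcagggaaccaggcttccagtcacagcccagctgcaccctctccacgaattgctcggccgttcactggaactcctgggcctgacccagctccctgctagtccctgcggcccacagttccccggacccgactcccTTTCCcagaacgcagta
Tnf: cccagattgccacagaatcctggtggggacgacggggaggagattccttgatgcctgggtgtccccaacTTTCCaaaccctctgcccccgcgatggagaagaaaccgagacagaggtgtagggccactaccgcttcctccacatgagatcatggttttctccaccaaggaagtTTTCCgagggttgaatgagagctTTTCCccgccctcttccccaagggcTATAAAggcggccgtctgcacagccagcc
Ltb: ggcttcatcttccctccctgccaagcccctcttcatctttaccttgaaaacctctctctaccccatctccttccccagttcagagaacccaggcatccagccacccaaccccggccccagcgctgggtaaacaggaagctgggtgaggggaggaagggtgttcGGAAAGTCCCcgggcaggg
Tnfsf11: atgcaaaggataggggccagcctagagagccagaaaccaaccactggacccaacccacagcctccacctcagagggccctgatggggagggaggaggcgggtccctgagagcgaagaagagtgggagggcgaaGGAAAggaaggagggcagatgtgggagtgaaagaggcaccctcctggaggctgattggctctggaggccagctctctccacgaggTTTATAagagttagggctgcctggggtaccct

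The Ltb sequence holds the only NF-κB consensus match among the 8 ligand windows of 250 bases, against 7.25% of 32817 such windows in the RefSeq table. That match contains a GGAAA. All 8 ligand windows hold GGAAA, which is also in 55.6% of all windows. TATAAA is in 3 of the 8, those of Tnf, Lta and Tnfsf11, against 12.4% of all windows. The Lta match lies 167 to 162 bases before the start site of Lta. The Tnfsf11 match lies 32 to 27 bases before the start site of Tnfsf11, on the opposite strand. The AP-1 motif TGANTCA is in the Tnfsf14 window alone, against 6.75% of all windows, and the cyclic AMP response motif TGACGTCA is in none of the 8, against 1.55%. In Tnf the TATAAA lies 29 to 24 bases before the start site, and 3 GGAAA matches lie 181 to 177, 77 to 73 and 54 to 50 bases before it, all on the opposite strand. These are matches of letters, and no binding was measured.

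The sorted identity was checked first. Cd4 was between 279 and 331 TPM in CD4SP libraries and at most 0.104 TPM in CD8SP libraries, while Cd8a was between 1038 and 1161 TPM in CD8SP and 0.319 to 2.93 TPM in CD4SP libraries. TPM is a length-corrected abundance scaled to a fixed total in each library, so levels of different genes can be compared, but sequencing depth is not kept. All 5 T cell genes examined (Cd3d, Cd3e, Cd3g, Cd247 and Lck) were at 34.6 TPM or more in every library. Of the B cell markers, Ms4a1 and Pax5 had a value of 0 throughout, Cd79a ranged between 1.52 and 3.56 TPM and Cd79b between 10.9 and 21.6 TPM. The summed level of 9 myeloid and dendritic cell markers was 17.2 to 32.9 TPM, with S100a8 and S100a9 listed at 0 in all. The 4 NK cell markers summed to 9.88 to 14.8 TPM in CD4SP and 56.0 to 64.8 TPM in CD8SP libraries, with Ncr1 listed at 0 in all 6. Most of these sums was Eomes alone, at 8.19 to 10.6 TPM in CD4SP and 49.9 to 55.4 TPM in CD8SP libraries. The 4 erythroid and platelet markers summed to at most 0.129 TPM. Of the gamma delta T cell markers, Sox13 was listed at 0 in all libraries and Blk was between 2.45 and 5.58 TPM. CD8SP replicates 1 and 2 were closer to each other, with a median absolute log2 difference of 0.0750 over genes above 20 TPM, than any other replicate pair, at 0.170 to 0.313.

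Ligand transcripts were present in both populations, and most ligand genes were higher in CD4SP iT cells. The sum over the 10 genes was 566, 554 and 681 TPM in CD4SP replicates 1 to 3 and 493, 393 and 450 TPM in CD8SP replicates 1 to 3. At 1 TPM or more, 8 of the 10 genes were listed in all 6 libraries, and the exceptions were Cd40lg and Cd70, which passed the filter on low values only through the CD4SP libraries. A gene was called when its Benjamini-Hochberg adjusted p over all 10476 tested genes, from limma on log2(TPM + 1), was below 0.05 with a change of more than 2-fold on that scale. By this rule 6 of the 10 ligand genes were called, namely Cd40lg, Tnfsf11, Cd70, Lta, Tnfsf14 and Tnfsf8, and 0 were called higher in CD8SP iT cells, where 0 also had an unadjusted limma p under 0.05. Of all tested genes, 9.73% were called, 7.92% in the CD4SP direction and 1.8% in the CD8SP direction. At an adjusted p alone, Tnf was the 7th gene to pass, also higher in CD4SP iT cells but not past that limit in 9 of 17 alternative analyses, and no ligand gene passed in the CD8SP direction by either rule. For 8 of the 10 genes, all 3 CD4SP libraries lay above all 3 CD8SP libraries, where 43.2% of all tested genes had groups that did not overlap in either direction. The median log2 fold change, CD4SP minus CD8SP, was 1.28 over the 10 ligand genes and 0.28 over all tested genes. Cd40lg and Cd70 are in these counts and this median, although a gene that passes the filter through 1 population only had to differ. Without them, 4 of 8 ligand genes were called, 6 of 8 had groups that did not overlap, and the median log2 fold change was 0.95. In these bulk libraries fewer cells with a transcript and less transcript per cell cannot be told apart. The study describes its libraries as biological replicates, but neither it nor the labels tie each library to a separate mouse, so p-values measure the spread between these libraries.

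**Figure D1:**
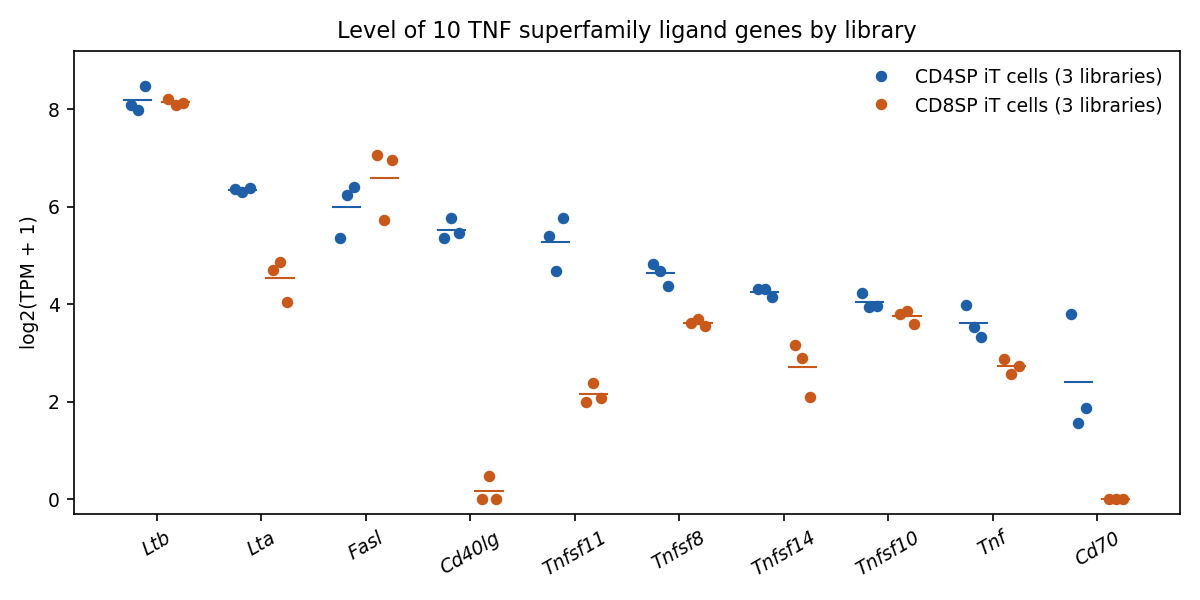
Level of each ligand gene on the log2(TPM + 1) scale (vertical axis), with 1 point per library and a line at the mean of the 3 libraries of CD4SP (blue) and CD8SP (orange) iT cells. Genes are ordered by their mean in CD4SP libraries; the points of the populations overlap for Ltb and Fasl and are separate for the other 8 genes.

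The ligand genes Cd40lg, Cd70 and Tnfsf8 were taken first. Cd40lg encodes the CD40 ligand, by which helper T cells license B cells and dendritic cells. In CD4SP replicates 1 to 3 its level was 40.1, 53.4 and 43.1 TPM, while CD8SP replicates 1 and 3 listed it at 0 and replicate 2 at 0.389 TPM. The groups were far apart, and the log2 fold change was 5.37 (adjusted p 6.38e-06 by limma, with an SE of 0.236). Cd40lg passed the filter through the CD4SP libraries alone, so this test does not stand as support. Since 2 of the 3 CD8SP libraries are at 0, the value depends on the pseudocount and became 8.06 at a pseudocount of 0.1. By mean TPM, Cd40lg was the 4th most abundant of the 10 ligands in CD4SP iT cells and the 9th in CD8SP iT cells. By library it ranked 5, 4 and 5 in CD4SP replicates 1 to 3, and in CD8SP replicates 1 and 3 it was tied with Cd70 at 0.

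Cd70 encodes the ligand of CD27, a costimulatory receptor on T cells. Its level was 12.9, 1.95 and 2.64 TPM in CD4SP replicates 1 to 3, and it was listed at 0 in all 3 CD8SP libraries. Replicate 1 stood well above the other CD4SP libraries. Cd70 too passed the filter through the CD4SP libraries alone. The groups did not overlap, and the fitted log2 difference was 2.41 (adjusted p 0.0171 by limma, with an SE of 0.542). No fold is given against libraries listed at 0, and the fitted value depends on the pseudocount, becoming 5.38 at a pseudocount of 0.1. Without CD8SP replicate 3 the limma adjusted p was 0.0589, and without CD4SP replicate 1 the fitted difference was 1.71.

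Tnfsf8 encodes the CD30 ligand, found on activated T cells. Its level was 27.5, 24.8 and 19.8 TPM in CD4SP replicates 1 to 3 and 11.2, 12 and 10.8 TPM in CD8SP replicates 1 to 3. All CD4SP libraries were above all CD8SP libraries, by a log2 fold change of 1.01 (adjusted p 0.00662 by limma, with an SE of 0.181), which is just over the 2-fold limit. Its difference dropped under that limit in 7 of 17 alternative analyses, 3 of them leaving out a library (CD4SP replicate 1 or 2, or CD8SP replicate 3), with a lowest value of 0.68 under quantile normalization.

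The lymphotoxins and TNF build and maintain lymphoid tissue and drive inflammation. Lta encodes lymphotoxin α, which is secreted as a homotrimer or anchored to the membrane by lymphotoxin β. Its level was 80.9, 78.0 and 82.9 TPM in CD4SP replicates 1 to 3 and 24.8, 28.0 and 15.5 TPM in CD8SP replicates 1 to 3. The CD4SP libraries lay close together, at 80.6 ± 2.46 TPM (SD, n = 3), and well above the CD8SP libraries, at 22.8 ± 6.47 TPM (SD, n = 3). The log2 fold change was 1.82 (adjusted p 0.000946 by limma, with an SE of 0.212), and the ratio of the mean TPM was 3.54.

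Ltb encodes lymphotoxin β, the membrane partner of lymphotoxin α in the heterotrimer that binds the lymphotoxin β receptor. It was the most abundant ligand transcript in every library, at 271, 253 and 355 TPM in CD4SP replicates 1 to 3 and 295, 272 and 277 TPM in CD8SP replicates 1 to 3. The groups overlapped. The log2 fold change was 0.04 (adjusted p 0.847 by limma, with an SE of 0.143), with a 95% interval from -0.28 to 0.37, so a 2-fold difference in either direction lies outside the interval. Its sign turned negative under other scalings of the libraries and without CD4SP replicate 3.

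Tnf encodes TNF, made as a membrane protein and released by the protease ADAM17. Its level was 14.8, 10.5 and 9.09 TPM in CD4SP replicates 1 to 3 and 6.34, 4.91 and 5.62 TPM in CD8SP replicates 1 to 3. The groups did not overlap, but the log2 fold change of 0.89 (adjusted p 0.0298 by limma, with an SE of 0.233) was under the 2-fold limit. The adjusted p by limma was above 0.05 in 9 of 17 alternative analyses, up to 0.162 under quantile normalization, with a log2 fold change of 0.53 there. Leaving out CD4SP replicate 1, or any one of the CD8SP replicates, also took it above 0.05, at 0.0749 to 0.112. Without CD4SP replicate 3, the lowest CD4SP library, the log2 fold change was 1.03 and Tnf was called.

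These 3 neighbouring genes thus differed in level and in how far the populations were apart. Within each library, the ratio of Lta to Ltb was 0.298, 0.309 and 0.233 in CD4SP replicates 1 to 3 and 0.0843, 0.103 and 0.0560 in CD8SP replicates 1 to 3. Such a ratio does not depend on the scaling of the library. It was higher in every CD4SP library than in any CD8SP library, and the same held for the ratio of Tnf to Ltb, at 0.0256 to 0.0547 against 0.0181 to 0.0215. The ratio of Lta to Tnf was 5.45 to 9.11 in CD4SP and 2.76 to 5.70 in CD8SP libraries, and here the groups overlapped. In a two-sided exact permutation test of the log2 ratios, p was 0.1 for Lta to Ltb and for Tnf to Ltb, the smallest that 3 libraries against 3 can give, and 0.2 for Lta to Tnf. Adjusted over these 3 ratios, the exact p was 0.15, 0.15 and 0.2.

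**Figure D2:**
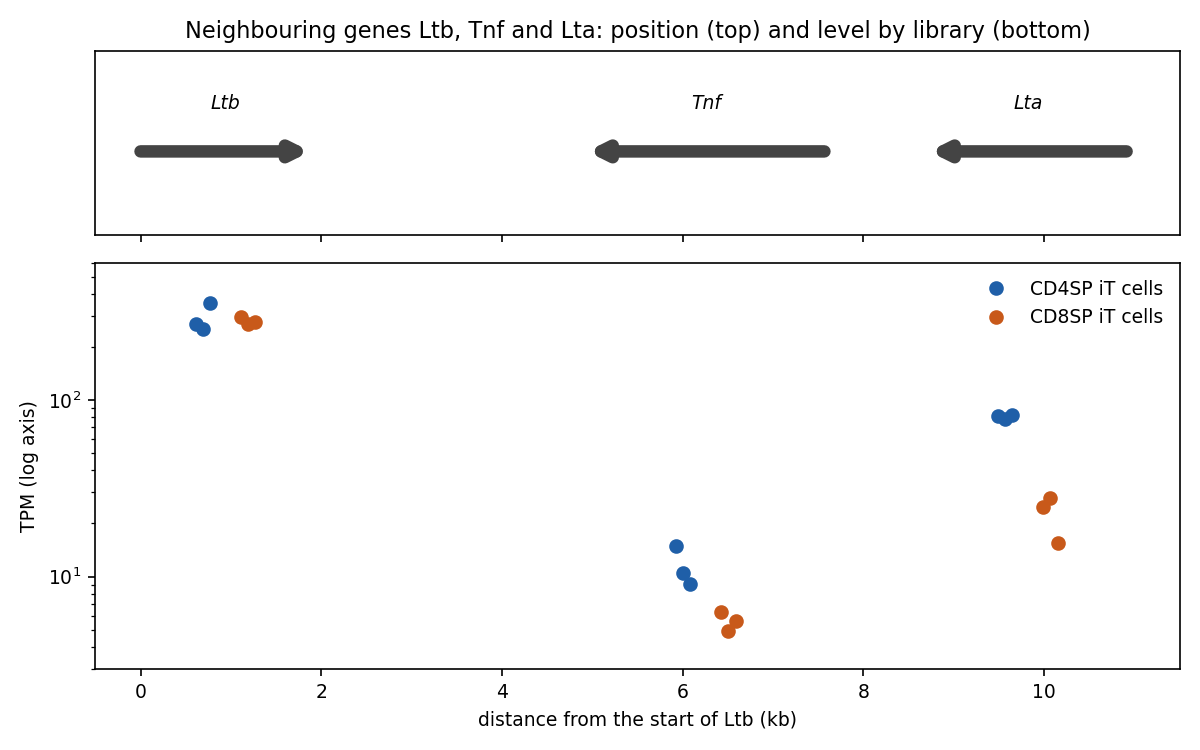
Neighbouring ligand genes Ltb, Tnf and Lta drawn to scale by distance in kb from the start of Ltb, with arrows in the direction of transcription (top), and their TPM on a log axis with 1 point per library, CD4SP in blue and CD8SP in orange (bottom). The CD8SP points of Lta (15.5 to 28.0 TPM) and Tnf (4.91 to 6.34 TPM) lie below the CD4SP points, and those of Ltb lie among them.

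Tnfsf11 and Tnfsf14 act on stromal, myeloid and T cells. Tnfsf11 encodes RANKL, which drives osteoclast formation, lymph node development and the maturation of thymic epithelium. Its level was 41.2, 24.6 and 53.4 TPM in CD4SP replicates 1 to 3 and 2.98, 4.23 and 3.24 TPM in CD8SP replicates 1 to 3. The CD4SP libraries varied among themselves, with replicate 2 lowest, but all lay far above the CD8SP libraries. The log2 fold change was 3.13 (adjusted p 0.000268 by limma, with an SE of 0.287) and the ratio of the mean TPM was 11.4, the largest among the ligand genes that were above 0 in every library.

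Tnfsf14 encodes LIGHT, which binds the receptors HVEM and the lymphotoxin β receptor. Its level was 19.0, 18.7 and 16.6 TPM in CD4SP replicates 1 to 3 and 7.96, 6.44 and 3.25 TPM in CD8SP replicates 1 to 3. The groups did not overlap, and CD8SP replicate 3 was the lowest library. The log2 fold change was 1.54 (adjusted p 0.00753 by limma, with an SE of 0.284). Tnfsf14 and Cd70, which are neighbours, were both higher in CD4SP libraries, yet Cd70 was listed at 0 in the 3 CD8SP libraries in which Tnfsf14 was not.

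The death-inducing ligands showed no call. Fasl encodes Fas ligand, used by cytotoxic T cells to kill target cells and in the contraction of T cell responses. Its level was 40.2, 74.6 and 83.7 TPM in CD4SP replicates 1 to 3 and 132, 52.2 and 123 TPM in CD8SP replicates 1 to 3. It was the only ligand gene whose mean was higher in CD8SP libraries, but CD8SP replicate 2 lay below CD4SP replicates 2 and 3, so the groups overlapped. The log2 fold change was -0.58 (adjusted p 0.305 by limma, with an SE of 0.383), with a 95% interval from -1.45 to 0.30. Leaving out a library in turn gave values from -1.0 to -0.26 and no call.

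Tnfsf10 encodes TRAIL, which triggers apoptosis through its death receptor. Its level was 17.9, 14.4 and 14.6 TPM in CD4SP replicates 1 to 3 and 12.9, 13.5 and 11.1 TPM in CD8SP replicates 1 to 3. The groups did not overlap, but the gap was narrow, and the log2 fold change was 0.30 (adjusted p 0.261 by limma, with an SE of 0.181), with a 95% interval from -0.11 to 0.71. This is close to the median of 0.28 over all tested genes.

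**Figure D3:**
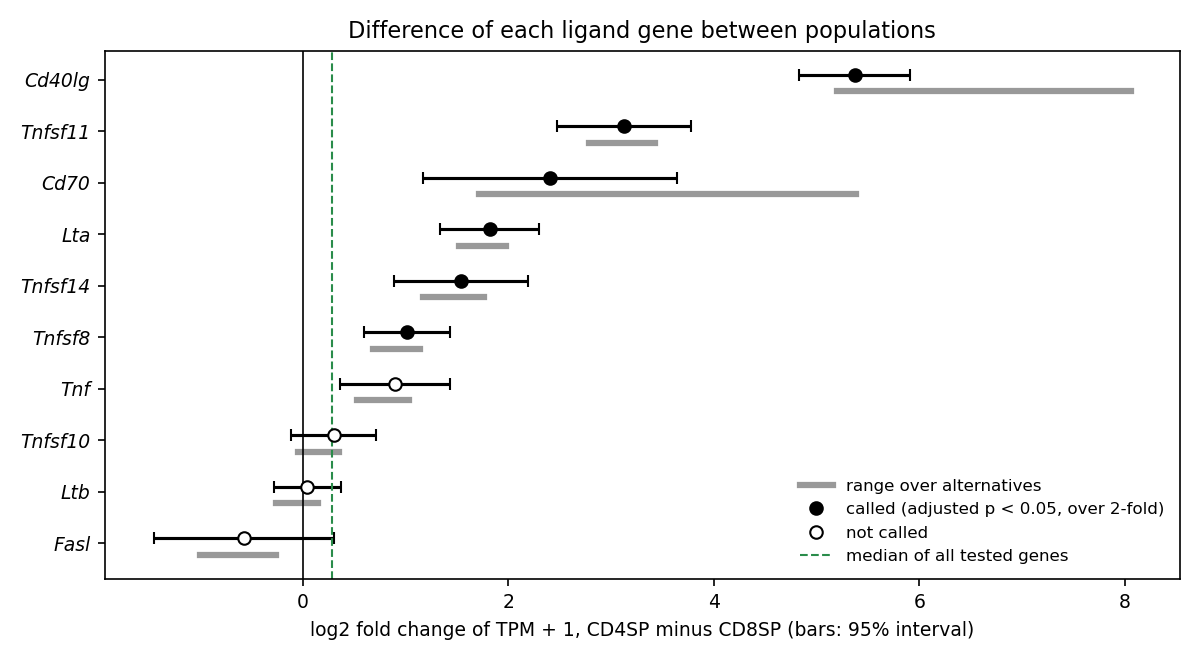
Log2 fold change of TPM + 1, CD4SP minus CD8SP (horizontal axis), for each ligand gene, with its 95% interval (black bar) and the range over the alternative analyses (grey bar). Filled points are the 6 called genes and open points the 4 others; the dashed green line is the median of all tested genes, 0.28.

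The order of the ligands by mean TPM differed between the populations. In CD4SP iT cells it was Ltb, Lta, Fasl, Cd40lg, Tnfsf11, Tnfsf8, Tnfsf14, Tnfsf10, Tnf and Cd70. The library ranges of Ltb and Lta, and those of Tnfsf8 and Tnfsf14, were separate, and the other 7 neighbouring pairs in this order had overlapping ranges. In CD8SP iT cells the order was Ltb, Fasl, Lta, Tnfsf10, Tnfsf8, Tnfsf14, Tnf, Tnfsf11, Cd40lg and Cd70, with overlapping ranges in 3 neighbouring pairs: Tnfsf10 and Tnfsf8, Tnfsf14 and Tnf, and Cd40lg and Cd70.

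The make-up of the ligand transcripts was also taken as shares of their summed TPM in each library. Ltb took 48.6% ± 3.29 in the CD4SP and 63.5% ± 4.91 in the CD8SP libraries (SD, n = 3). Fasl took 7.11, 13.5 and 12.3% in CD4SP replicates 1 to 3 and 26.8, 13.3 and 27.3% in CD8SP replicates 1 to 3, so that CD8SP replicate 2 lay within the CD4SP range. Lta took 13.5% ± 1.18 in CD4SP and 5.20% ± 1.83 in CD8SP libraries (SD, n = 3). Cd40lg and Tnfsf11 took 7.69% ± 1.74 and 6.52% ± 1.83 of the sum in CD4SP (SD, n = 3), against 0.0329% ± 0.0571 and 0.800% ± 0.245 in CD8SP libraries. Since shares of 1 sum are tied to each other, a higher share of Ltb does not mean a higher level.

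**Figure D4:**
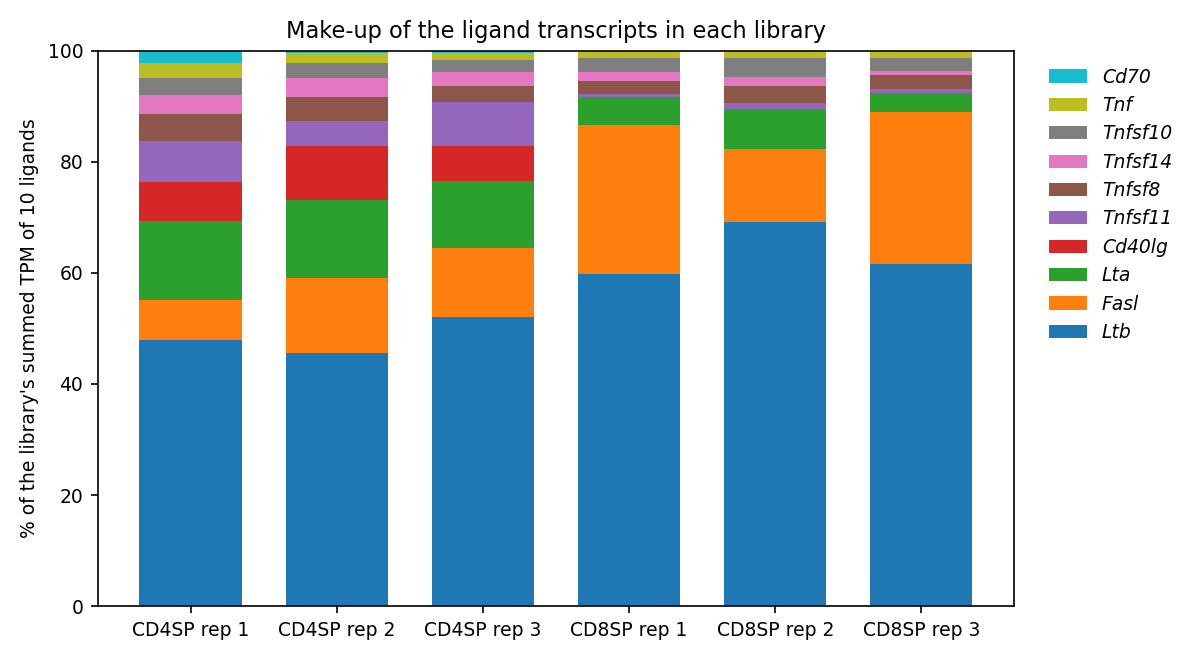
Share of each ligand gene in the summed TPM of the 10 ligand genes (vertical axis, percent), with 1 bar per library. Ltb is the largest part of every bar, at 45.6 to 52.1% in CD4SP and 59.8 to 69.1% in CD8SP libraries, and Cd40lg (red) and Tnfsf11 (purple) take at most 0.0988% and 1.07% of the CD8SP bars.

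Receptors of these ligands were examined next, as 11 genes listed by name. Of the 6 that passed the filter, 2 were called, both higher in CD4SP iT cells, where 7.92% of all tested genes were called in that direction. Cd40, the receptor of the CD40 ligand and mainly known from B cells and dendritic cells, reached 10.6, 9.48 and 6.63 TPM in the CD4SP libraries. Of the CD8SP libraries, replicate 1 listed it at 0.434 TPM and the others at 0, a fitted log2 difference of 3.11 (adjusted p 0.000276 by limma, with an SE of 0.288). Cd40 passed the filter through the CD4SP libraries alone, so it had to differ, and its fitted value ranged from 2.89 to 5.66 over the alternative analyses. The B cell markers Ms4a1 and Pax5 had a value of 0 in each of the 6 libraries. The range of Cd79a was 2.23 to 3.56 TPM in CD4SP and 1.52 to 1.73 TPM in CD8SP libraries, and that of Cd79b 10.9 to 17.4 TPM in CD4SP and 18.5 to 21.6 TPM in CD8SP libraries.

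Tnfrsf1b encodes TNF receptor 2, which binds TNF and lymphotoxin α and is abundant on regulatory T cells. Its level was 102, 99.5 and 93.4 TPM in CD4SP replicates 1 to 3 and 30.1, 31.8 and 21.9 TPM in CD8SP replicates 1 to 3. The groups did not overlap, and the log2 fold change was 1.79 (adjusted p 0.000276 by limma, with an SE of 0.166). Tnfrsf1a, the death domain receptor of the same ligands, was at 25 to 29.6 TPM in CD4SP and 21.7 to 23.3 TPM in CD8SP libraries and was not called (adjusted p 0.240 by limma for a log2 fold change of 0.26).

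Fas, the receptor of Fas ligand, was at 51.7 to 71.1 TPM in CD4SP and 37.3 to 42.4 TPM in CD8SP libraries, with a log2 fold change of 0.53 and a limma adjusted p of 0.0518. Cd27, the receptor of CD70, was abundant in both populations, at 171 to 248 TPM in CD4SP and 231 to 268 TPM in CD8SP libraries, and was not called. Tnfrsf14, which encodes HVEM, was at 5.51, 0 and 1.23 TPM in replicates 1 to 3 of CD4SP, against 3.42, 4.16 and 1.19 TPM in those of CD8SP iT cells. Ltbr, Tnfrsf8, Tnfrsf11a and Tnfrsf11b, the receptors of lymphotoxin β, CD30 ligand and RANKL including its soluble decoy, were listed at 0 in all 6 libraries. Tnfrsf10b, the receptor of TRAIL, was at 0.254 to 1.55 TPM over the libraries. So for Ltb, Tnfsf8 and Tnfsf11 the ligand transcript was above 0 in all 6 libraries and the receptor transcript listed was at 0 in all 6.

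Over the 40 receptor, ligand, signalling and processing genes listed, 29 were tested and 5 were called, all higher in CD4SP iT cells, Cd40 among them. Of all tested genes, 7.92% were called in that direction. The median log2 fold change of the 29 was 0.53, against 0.28 over all tested genes. Of 8 further ligands of the superfamily, 2 were tested and 0 called, where at an unadjusted p under 0.05 limma gave 1 gene, Tnfsf9. Tnfsf9, the ligand of 4-1BB, was at 20.7, 10.1 and 3.62 TPM in replicates 1 to 3 of CD4SP, against 2.03, 4.18 and 0.604 TPM in those of CD8SP iT cells, so the groups overlapped, and its limma adjusted p was 0.0607. With the replicate number as a block, or without CD4SP replicate 3, Tnfsf9 was called. Tnfsf13b, the gene of the B cell survival factor BAFF, was at 3.09 to 4.83 TPM over the 6 libraries.

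Of 13 signalling genes downstream of the receptors, 1 was called, a share no higher than the 9.73% of all tested genes. Birc3, which encodes the ubiquitin ligase cIAP2 of the TRAF complexes, was at 67.5, 46.1 and 61.0 TPM in replicates 1 to 3 of CD4SP, against 25.1, 28.5 and 26.2 TPM in those of CD8SP iT cells, a log2 fold change of 1.09 (adjusted p 0.00396 by limma, with an SE of 0.172). It dropped under 2-fold under 3 other scalings of the libraries and without CD4SP replicate 1. Birc2, Traf3 and Casp8 passed the adjusted p alone, with log2 fold changes of 0.81, 0.78 and 0.46. Tnfaip3, the gene of the NF-κB inhibitor A20, was listed at 1.26 TPM in CD4SP replicate 3, against 245 and 190 TPM in the other CD4SP libraries and 118 to 136 TPM in CD8SP libraries. Its fitted difference changed from -1.45 to 0.75 without that library.

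Of 8 genes for ligand shedding and for decay of AU-rich mRNA, 2 were called, beside the same 9.73%. Adam17, the protease that releases TNF, was at 38.7, 38.5 and 42.0 TPM in replicates 1 to 3 of CD4SP, against 19.1, 18.3 and 16.8 TPM in those of CD8SP iT cells, a log2 fold change of 1.09 (adjusted p 0.00169 by limma, with an SE of 0.144). Under the 3 other scalings it too dropped under 2-fold. Zfp36l1, which encodes a protein that promotes the decay of AU-rich mRNA, was at 59.7, 79.6 and 88.9 TPM in replicates 1 to 3 of CD4SP, against 22.7, 24.3 and 29.0 TPM in those of CD8SP iT cells, a log2 fold change of 1.54 (adjusted p 0.00106 by limma, with an SE of 0.184). Its relative Zfp36, known for limiting Tnf mRNA, differed by 0.98 on the log2 scale (adjusted p 0.00149 by limma), just under the 2-fold limit.

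**Figure D5:**
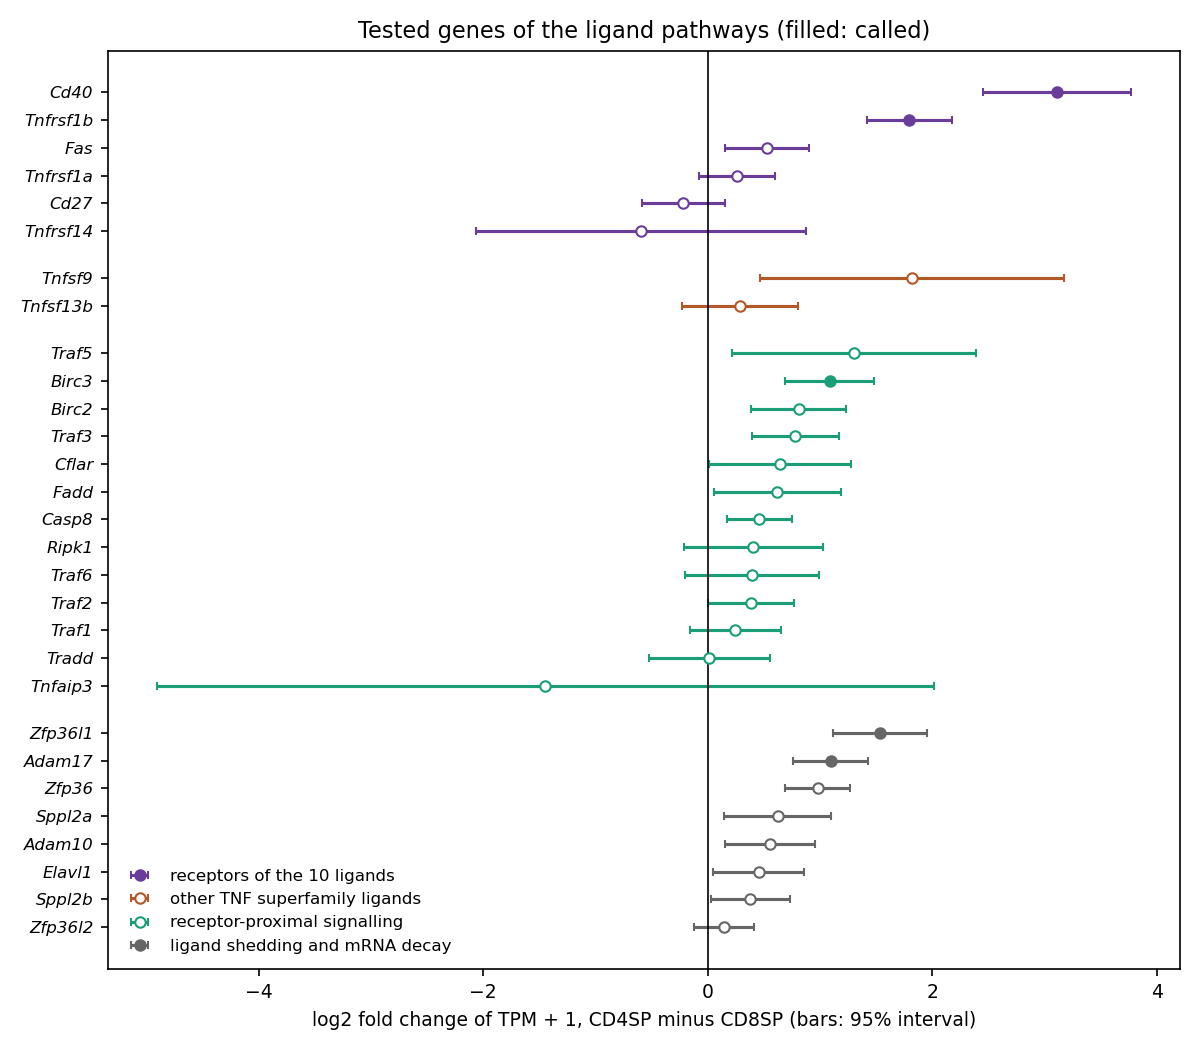
Log2 fold change of TPM + 1, CD4SP minus CD8SP (horizontal axis), with its 95% interval, for the 29 tested genes of the receptor, other ligand, signalling and processing lists, coloured by list. Filled points are the 5 called genes, Cd40, Tnfrsf1b, Birc3, Zfp36l1 and Adam17, and Tnfaip3 has the widest interval.

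Most of the activation and regulatory T cell genes examined were also called higher in CD4SP iT cells. The immediate early and activation genes Cd69, Cd44, Egr1, Nr4a1 and Fos summed to 538 to 604 TPM in CD4SP and 279 to 289 TPM in CD8SP libraries, and 4 of the 5 were called higher in CD4SP iT cells, all but Cd69, where 7.92% of all tested genes were. Cd44 was not called under median-of-ratios rescaling or quantile normalization. The regulatory T cell genes Foxp3, Il2ra, Ctla4, Ikzf2 and Ikzf4 summed to 955 to 1246 TPM in CD4SP and 146 to 172 TPM in CD8SP libraries, and 4 of the 5 were called higher in CD4SP iT cells, all but Foxp3, beside the same 7.92%. Foxp3, the lineage factor of regulatory T cells, stood at 142, 6.56 and 167 TPM in replicates 1 to 3 of CD4SP and at 7.48, 7.48 and 10.05 TPM in those of CD8SP iT cells, so CD4SP replicate 2 lay below all CD8SP libraries. With library weights, with the replicate number as a block or without CD4SP replicate 2, Foxp3 was called too. In CD4SP replicates 1 to 3, Il2ra was at 95.7, 92.0 and 82.1 TPM and Ctla4 at 866, 814 and 937 TPM. Ikzf2 was at 44.9, 35.6 and 48.3 TPM there, and Ikzf4 at 9.97, 7.02 and 10.9 TPM. Among the ligand genes, CD4SP replicate 2 was the lowest of the CD4SP libraries for Tnfsf11, Cd70, Lta, Ltb and Tnfsf10. For Lta and Tnfsf10 the gap to the next CD4SP library was small (78.0 against 80.9 TPM and 14.4 against 14.6 TPM). CD4SP replicate 2 was the highest of them for Cd40lg. Without CD4SP replicate 2, limma called 5 ligand genes, all but Tnfsf8 of the 6. The part of activation and of regulatory T cells in the ligand differences was not tested. Among the myeloid markers, Lyz2 was called higher in CD4SP (17.1 to 30.9 against 3.64 to 8.33 TPM) and Itgax higher in CD8SP libraries (17.2 to 18.1 against 0 to 0.946 TPM, so that it passed the filter through CD8SP alone). The NK cell markers Eomes and Klrb1c were called higher in CD8SP iT cells, at 49.9 to 55.4 against 8.19 to 10.6 TPM and at 5.22 to 9.14 against 0.682 to 1.82 TPM, and kept that call in all 17 alternatives. The part of these markers in the ligand differences was not tested.

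For each called ligand gene, the tested genes with the most similar pattern were found among 6735 genes with a mean of at least 10 TPM, as the smallest root mean square difference of centred log2(TPM + 1) over the 6 libraries. For Lta these were Tnfrsf1b (0.103), Ccrl2 (0.112) and Gadd45b (0.124), for Tnfsf11 Tbc1d4 (0.183), Cd200r1 (0.195) and Ikzf2 (0.266), and for Tnfsf14 Mxd1 (0.180) and Hemk1 (0.184). Cd40lg had Lrrc32 (0.342), Tnfrsf4 (0.361) and Ebi3 (0.375), and Tnfsf8 had Sc4mol (0.0754), Phyh (0.0863) and Fkbp5 (0.0897). Cd70 had no close match, with Ldhb (0.494), Atxn7l1 (0.559) and H2-Eb1 (0.566) nearest. The 6 libraries fall into 2 populations, so this measure takes in the difference between the populations as well as the spread within them.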

How the data were processed

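The data were 6 libraries of 1000 sorted spleen iT cells each, grouped as CD4SP or CD8SP by their titles. The authors made cDNA by whole-transcriptome amplification, mapped the reads to mm10 with HISAT2 and deposited StringTie TPM values. Depth is unknown, since TPM keeps none, so no detection limit can be given, and more transcript of one class lowers the TPM of all others. A count test was therefore not used. Genes at 1 TPM or more in at least 3 libraries were fitted on log2(TPM + 1), which understates changes of low genes, with limma 3.58.1 in R 4.3.3 (lmFit, eBayes with trend), with population as the only term and Benjamini-Hochberg adjustment over all tested genes. The fit was tested on simulated data. The ligand genes, pathway lists, markers and alternatives were chosen with earlier results of these data known. Named genes were the ligands, all list members and the 3 nearest genes of each called ligand, of which some are not reported here. Some entries of the fixed lists stand in the table under older symbols, and Trdc was not used here. The search for near-identical copies used blastn 2.17.0. Leaving out a library kept the set of tested genes. No pairing of the libraries by replicate number was seen in the values, and the labels state none.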

Additional observations from a re-analysis of the deposited data

How the results depend on the processing

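Lta, Tnfsf11 and Tnfsf14 kept their call and direction in all 17 alternatives. Cd40lg did too, but it passed the main filter through the CD4SP libraries alone, so its calls are no support. Cd70 kept its call in 15 of 16 and could not be tested at a filter of 5 TPM. It also passed the main filter through the CD4SP libraries alone, so these calls are no support either. The count of called ligand genes was 4 to 7 on leaving out each library in turn (4 without CD8SP replicate 3), 5 under median-of-ratios rescaling, quantile normalization, library weights, removal of ribosomal protein genes and the 5 TPM filter, and 7 at an adjusted p alone, Tnf being the one added. Over all tested genes 2183 passed the adjusted p alone, against 1019 with the fold limit. Pathway genes called were 3 under median-of-ratios rescaling, 3 under quantile normalization, 3 without ribosomal protein genes and 9 at an adjusted p alone, against 5, and 5 to 6 on leaving out each library. At a minimum of 5 TPM, 5 ligand genes were listed in every library. The log2 fold change of Ltb was -0.26 under median-of-ratios rescaling, -0.13 under quantile normalization, -0.11 without ribosomal protein genes and -0.10 to 0.14 on leaving out each library. That of Tnfsf10 was -0.052 under quantile normalization. The cause was not tested. The median over all genes was 0.28, and 2.79e-05, -0.02 and 0.15 under these 3 scalings, and 61.3%, 57.0% and 73.2% of calls were then higher in CD4SP, against 81.5%. Removing ribosomal protein genes and averaging CD8SP replicates 1 and 2 were chosen after seeing the data.

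With the replicate number as a replicate block, limma called the same 6 ligand genes, and 997 genes in all. Same-numbered libraries correlated by 0.0515, -0.0168 and 0.0887 in their deviations, so no pairing by number was seen. The labels do not say whether same-numbered libraries come from the same mouse.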
